A study of Oryza sativa Japonica Group with 8 samples.

Results

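Tonoplast aquaporins (TIPs) are water channels of the vacuole membrane, and 5 of their rice genes were followed by locus in leaves that dried over 3 days. These 5 are among 27626 genes with values in both deposited tables, and they were picked by locus as named tonoplast aquaporins, with earlier results of these data known. Leaves of japonica rice (variety Ilmi, 5 weeks old, grown in soil in a greenhouse) were sampled from well-watered plants and from plants left without water for 1, 2 or 3 days, after the soil had been brought to about 75% water. Plants stood 3 to a pot, and how many plants went into a library is not given in the labels. Each treatment was sequenced once as total RNA and once as poly(A) mRNA, so that 8 libraries stand for 4 treatments without replicates. Levels are in FPKM, a fragment density that corrects for transcript length and library size, summed over the transcripts of a gene.

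Most of the volume of a grown leaf cell is vacuole, and TIPs let water cross its membrane quickly, so that the cytoplasm is buffered when the cell loses or gains water. Plant TIPs fall into groups that differ in what else they pass and where they are found. TIP1 channels (gamma type) are the common ones of large vacuoles in green tissue, TIP2 channels (delta type) carry water and, in Arabidopsis and wheat, ammonia, and TIP3 channels (alpha type) belong to the storage vacuoles of seeds. Symbols such as TIP1-1 are given from general knowledge, since the files pair the loci only with descriptions, and each of the 5 descriptions names a tonoplast protein.

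There is no replicate of any treatment, so no test between treatments was possible. A gene is called higher or lower when the log2 ratio of FPKM + 1 reached 1 (higher) or -1 (lower) in total RNA and in mRNA alike, and this 2-fold size rule has no p-value. The total RNA and mRNA libraries are not replicates, and the labels do not say whether they share RNA. Of the 5 genes, 4 averaged 1 FPKM or more in both tables and were compared with the 18113 genes that passed this filter. TIP2-1 (Os02g0658100) stayed below 1 FPKM in all 8 libraries. The summed FPKM per library ran from 678548 to 755487. If the most frequent step among low values of FPKM times length is 1 fragment, which is an assumption, the libraries held about 16300000 to 24600000 fragments. The tissue label was checked with 5 leaf genes for the Rubisco small subunit and chlorophyll a/b-binding proteins, which were at 676 to 16319 FPKM in the well-watered libraries and were all called lower on day 3, with a median log2 ratio of -7.53 (total RNA) and -7.88 (mRNA), and the part of this in the TIP results was not tested. In bulk leaf RNA, fewer cells of a type and less RNA per cell cannot be told apart.

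TIP1-2 carried most of the TIP signal in watered leaves, and its level was lower on each further day without water. TIP1-2 (Os01g0975900, chromosome 1, 43115747 to 43117221 on IRGSP-1.0) was at 599.9 FPKM under full watering, then at 375, 320 and 137 FPKM after 1, 2 and 3 dry days in total RNA. In mRNA it was at 1057 FPKM under full watering, then at 639, 388 and 187 FPKM after 1, 2 and 3 dry days. The watered library was the highest and the day 3 library the lowest in both kinds, and each day lay below the one before. On day 3 the log2 ratio to well-watered was -2.13 in total RNA and -2.49 in mRNA, which is 4.36-fold and 5.62-fold lower. Day 1 was not called, at -0.68 and -0.72. Nor was day 2, at -0.91 and -1.44, where the mRNA ratio alone passed the size rule, as it did downward for 14% of all compared genes. Ranked by FPKM among the genes of its library, on day 3 it was number 884 in total RNA and number 627 in mRNA, against 134 and 73 in the well-watered libraries.

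TIP2-2 (Os06g0336200, delta type, chromosome 6, 13407319 to 13408715) was nearly level for 2 days and called lower on the last. It was at 56.3 FPKM under full watering, then at 55.5, 56.9 and 5.84 FPKM after 1, 2 and 3 dry days in total RNA. The mRNA libraries held 77.5 FPKM under full watering, then 71.8, 74.0 and 9.77 FPKM after 1, 2 and 3 dry days. The first 3 libraries of each kind lay close together, and day 3 alone stood apart. Day 3 over well-watered gave ratios of -3.07 (total RNA) and -2.86 (mRNA), both past the size rule. On days 1 and 2 the ratios lay between -0.11 and 0.02, with a sign that changed between library kinds on day 2. Of the 18113 compared genes, 2804 (15.5%) were likewise lower on day 3 and not called on days 1 and 2.

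TIP4-1 (Os05g0231700, chromosome 5, 8000718 to 8002989) was lowest on day 2 and highest on day 3, when TIP2-2 was lowest. This gene of the TIP4 group was at 47.5 FPKM under full watering, then at 27.8, 18.4 and 73.0 FPKM after 1, 2 and 3 dry days in total RNA. In mRNA it was at 39.8 FPKM under full watering, then at 25.0, 13.3 and 54.7 FPKM after 1, 2 and 3 dry days. The well-watered library lay between the day 1 and day 3 libraries in both kinds. On day 2 it was called lower at -1.32 and -1.51 (total RNA, mRNA), and on day 3 it was not called at 0.61 and 0.45. Day 3 over day 2 was called higher, at 1.93 and 1.96. Of the 18113 genes, 57 (0.315%), TIP4-1 included, were both lower on day 2 and higher from day 2 to day 3. That course was taken from the values of TIP4-1 itself, and its 2 comparisons share the day 2 libraries, so the count only describes it.

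**Figure D1:**
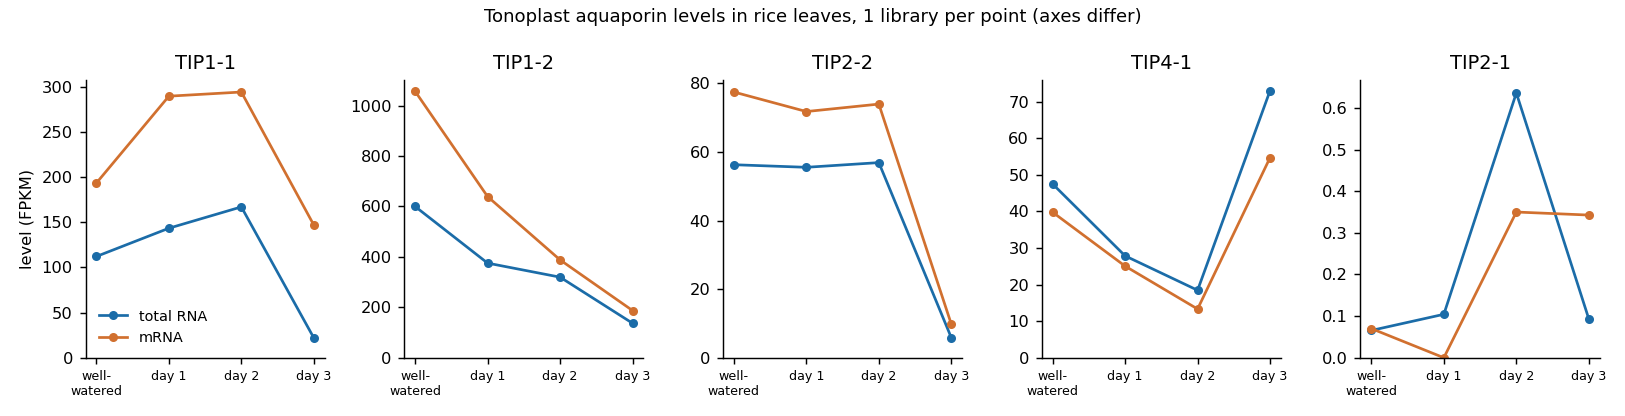
Level in FPKM (y axis, from 0, with a scale of its own in each panel) of the 5 tonoplast aquaporin genes in well-watered leaves and on days 1, 2 and 3 without water (x axis). Each point is 1 library, blue for total RNA and orange for mRNA. TIP1-2 is lower in each later library, TIP2-2 is low on day 3 only, TIP4-1 dips to 18.4 and 13.3 FPKM on day 2 and is highest on day 3, and TIP2-1 stays below 1 FPKM.

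TIP1-1 (Os03g0146100, described as the tonoplast water channel, chromosome 3, 2562812 to 2564646) stood somewhat higher on days 1 and 2, when TIP1-2, TIP2-2 and TIP4-1 were level or lower, and far lower on day 3 in total RNA. It was at 112 FPKM under full watering, then at 143, 167 and 21.9 FPKM after 1, 2 and 3 dry days in total RNA. The mRNA libraries held 193 FPKM under full watering, then 290, 294 and 147 FPKM after 1, 2 and 3 dry days. Both kinds were highest on day 2 and lowest on day 3, but day 3 stood much further down in total RNA. The day 3 ratio was -2.30 in total RNA, where 27.9% of all compared genes were past the rule downward in that kind, and -0.39 in mRNA, so TIP1-1 was not called. The mRNA ratio rounds to the median of all compared genes in that kind (-0.39), and under median-ratio scaling it changed sign to 0.17. On days 1 and 2 the total RNA ratios were 0.35 and 0.57 and the mRNA ratios 0.58 and 0.60. None of them passed the size rule. The medians of all compared genes on those days were 0.23 and 0.11 (total RNA) and 0.17 and 0.06 (mRNA). Under median-ratio scaling the TIP1-1 ratios were 0.11 and 0.50 (total RNA) and 0.39 and 0.59 (mRNA). Quantile-normalized values gave 0.13 and 0.20 (total RNA) and 0.41 and 0.32 (mRNA).

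The gap between the kinds on day 3 lay in 1 transcript form. The files list 3 forms of TIP1-1, of 1081, 870 and 551 bases. The 1081-base form (Os03t0146100-01) made up 97.3% to 99.6% of the gene in the 4 total RNA libraries and 99.1% to 99.4% in the mRNA libraries of watered leaves and days 1 and 2, but 14.7% in the mRNA library of day 3. On day 3 it was at 21.4 FPKM (total RNA) and 21.6 FPKM (mRNA), against 111 and 192 FPKM in the well-watered libraries. The 551-base form (Os03t0146100-05, 2562867 to 2563417) was at 125 FPKM in the mRNA library of day 3, and between 0.301 and 0.473 FPKM in the other 7 libraries. On day 3 the kinds thus gave nearly equal values for the long form and very different ones for the short form. Before day 3 the long form stood higher in mRNA, as in the well-watered libraries. It was at 142 (total RNA) and 288 FPKM (mRNA) on day 1 and at 166 and 293 FPKM on day 2. Of 33808 transcripts in both tables, this was the only 1 at 100 FPKM or more in a single library and below 1 FPKM in the other 7, with limits chosen after its values were seen. Whether the plants made such a form or the estimation of transcripts placed fragments there was not tested. Without the short form the mRNA ratio on day 3 is -3.10, and with fragments counted over the longest form it is -1.17. Either way TIP1-1 would be called lower on day 3 in FPKM without further scaling, which would make 3 lower genes of the 4 compared. Neither alternative was combined with median-ratio scaling. A gene of unknown function, Os03g0146200, overlaps 1328 bases of TIP1-1 and was at 0.0913 to 1.16 FPKM.

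**Figure D2:**
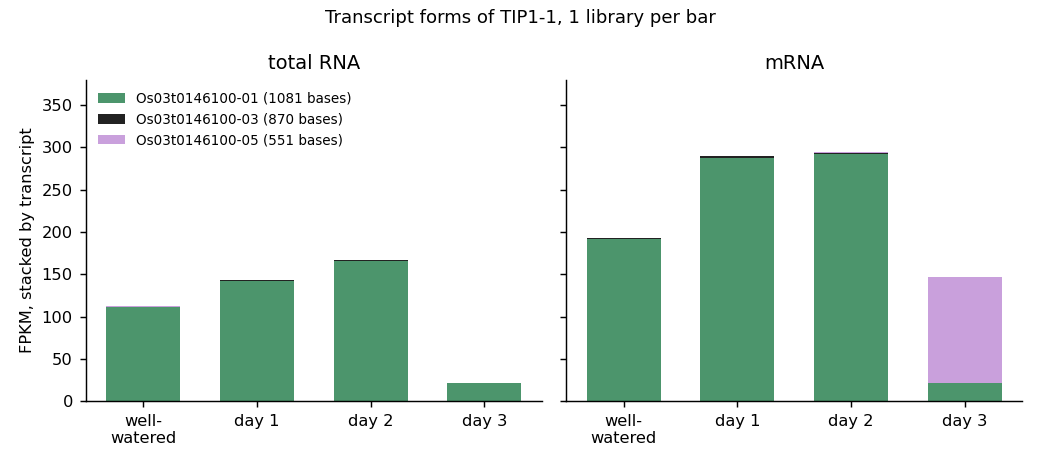
FPKM of the 3 transcript forms of TIP1-1 (y axis, stacked bars from 0) in well-watered leaves and on days 1, 2 and 3 without water (x axis), with total RNA on the left and mRNA on the right, 1 library per bar. The 551-base form is visible in 1 bar, the mRNA library of day 3, where it holds 125 of 147 FPKM.

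The other genes showed no such break between forms. TIP1-2 has forms of 1148 and 1345 bases, and the longer one, which starts 246 bases further left on the chromosome, was at 102 FPKM under full watering, then at 58.8, 22.9 and 12.8 FPKM after 1, 2 and 3 dry days in total RNA. Its share of the gene in total RNA was 9.33% on day 3, against 17.1% when watered, and in mRNA 7.70% on day 3, against 11.2% when watered. TIP2-2 has a 1072-base form at 6.13% of the gene or less in all libraries. TIP4-1 and TIP2-1 have 1 form each. The locus Os05g0231600, which is also described as a tonoplast intrinsic protein, overlaps 701 bases of TIP4-1 and was at 0.126 FPKM or less, and how fragments were divided between the overlapping loci was not tested.

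TIP2-1, the delta type gene known in rice for its root expression, was at 0.0656 FPKM under full watering, then at 0.104, 0.636 and 0.0931 FPKM after 1, 2 and 3 dry days in total RNA. In mRNA it was at 0.0700 FPKM when watered, listed at 0 on day 1, and at 0.350 and 0.343 FPKM on days 2 and 3. Under the assumption on the step, the highest of these values rests on 13.7 fragments (95% exact Poisson limits 7.41 to 23.1, covering counting error only) and the watered total RNA value on 1.00 (0.0253 to 5.57). No change of TIP2-1 can be read from these values. For the 4 compared genes the same estimate gives at least 147 fragments per library (limits 124 to 173), so that counting error is small beside the called differences, while the spread between plants is unknown.

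None of the 4 genes TIP1-1, TIP1-2, TIP2-2 and TIP4-1 was called on day 1, when 6.93% of the 18113 genes were called higher and 2.46% lower. On day 2, TIP4-1 was the 1 gene of these 4 called lower, against 11.1% of all genes, and none was called higher, against 14.5%. On day 3, TIP1-2 and TIP2-2 were the 2 genes of 4 called lower, against 25.9%, and none was called higher, against 18.2%. In total RNA the median of the 4 ratios was -0.35, -0.45 and -2.21 on days 1 to 3, beside 0.23, 0.11 and -0.24 over all compared genes. The mRNA medians were -0.38, -0.75 and -1.44 for the 4 genes, beside 0.17, 0.06 and -0.39 over all. With 4 genes, these counts describe the genes and carry no statement about the group. All 3 comparisons share the well-watered libraries.

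Set against day 2 in place of well-watered, day 3 had calls for 3 of the 4 genes. TIP2-2 was called lower at -3.08 and -2.80 and TIP1-2 at -1.22 and -1.05, against 15.1% of all genes called lower in that step. The TIP1-2 call is lost under median-ratio scaling, at -0.78 and -0.47. TIP4-1 was the 1 gene of the 4 called higher, against 7.38% of all genes. TIP1-1 was at -2.87 in total RNA, past the rule as 18.6% of all genes were downward, and at -0.997 in mRNA, just short of it. That mRNA value rests on the short form, since it is -3.71 without the form, -3.70 for the transcript with the highest mean and -1.77 with fragments counted over the longest form, and each of these makes the call. So do quantile-normalized values at -1.05 and a pseudocount of 0.1, while median-ratio scaling gives -0.42. Between day 1 and day 2 none of these 4 genes was called, against 4.3% of all genes called higher and 5% lower.

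**Figure D3:**
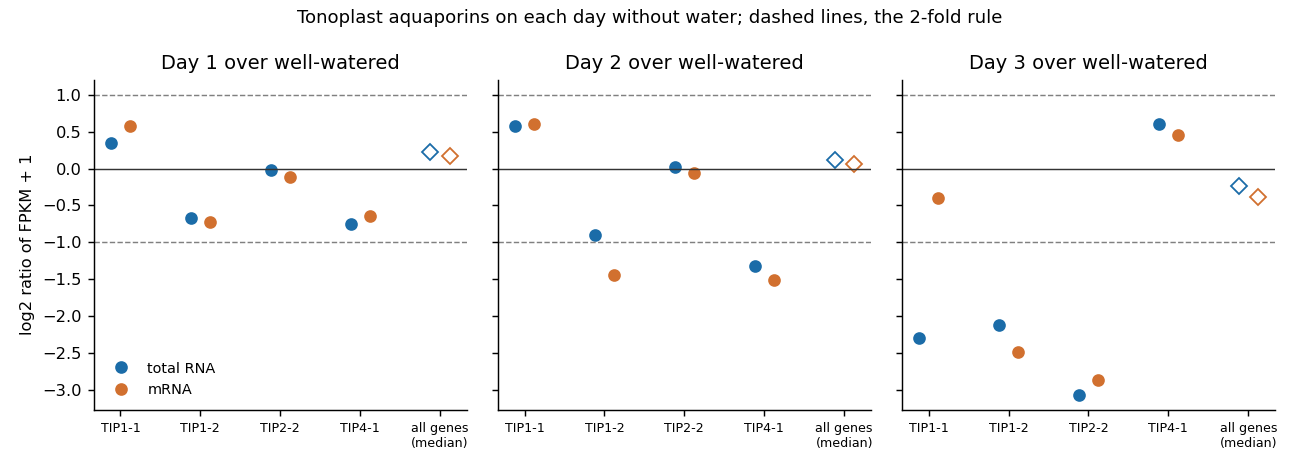
Log2 ratio of FPKM + 1 on days 1, 2 and 3 over well-watered (y axis) for the 4 compared TIP genes and the median of all 18113 compared genes (x axis, open diamonds), blue for total RNA and orange for mRNA, with dashed lines at the 2-fold rule. On day 3 TIP1-2 and TIP2-2 lie below -1 in both kinds, TIP1-1 in total RNA only, and TIP4-1 lies above 0.

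Added up, the 5 genes were far lower on day 3 than in watered leaves. Their summed level was 816 FPKM under full watering, then 602, 563 and 238 FPKM after 1, 2 and 3 dry days in total RNA. In mRNA it was 1368 FPKM under full watering, then 1026, 770 and 399 FPKM after 1, 2 and 3 dry days. The sum was lower on each day than before it, in both kinds, in FPKM without further scaling. In total RNA the median-ratio factors were 1.204 for day 1 and 1.066 for day 2. Division by them puts the total RNA sum of day 2 above that of day 1. Its log2 ratio on day 3 was -1.78 in both kinds. Without the short TIP1-1 form the mRNA sum on day 3 is 273 FPKM and its ratio -2.32.

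The make-up of the sum changed as well. TIP1-2 held 73.5% of it when watered and 62.3%, 56.8% and 57.6% on days 1, 2 and 3 in total RNA, and 77.3%, 62.3%, 50.4% and 46.9% at those times in mRNA. The order of levels in watered leaves was TIP1-2, TIP1-1, TIP2-2, TIP4-1 and TIP2-1 in both kinds. On day 3 TIP4-1 held 30.7% of the total RNA sum and 13.7% of the mRNA sum, against 5.82% and 2.91% in the well-watered libraries. In total RNA it then came second after TIP1-2, with TIP1-1 at 9.24% and TIP2-2 at 2.46%. In the mRNA library of day 3 TIP1-1 was second at 36.8%, most of it the short form.

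**Figure D4:**
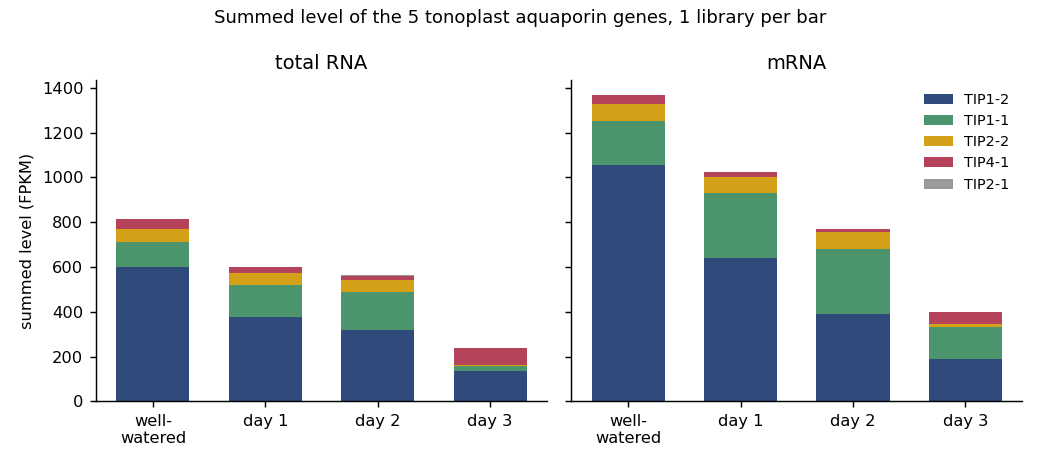
Summed FPKM of the 5 tonoplast aquaporin genes (y axis, stacked bars from 0) in well-watered leaves and on days 1, 2 and 3 without water (x axis), with total RNA on the left and mRNA on the right, 1 library per bar. The total is 238 and 399 FPKM on day 3 against 816 and 1368 FPKM when watered, and TIP4-1 takes a larger part of it on day 3.

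Levels in mRNA were above those in total RNA for TIP1-1, TIP1-2 and TIP2-2 in each treatment and below them for TIP4-1. The log2 ratio of mRNA over total RNA was 0.78, 0.82 and 0.45 for the first 3 genes and -0.25 for TIP4-1 in watered leaves, where the median gene was at 0.14. The tables may have been normalized separately, so these levels are only set side by side. TIP1-1 on day 3 was at 2.69, a value reached by 18 of the 18113 compared genes, itself included. That value rests on the 551-base form, at 125 FPKM in mRNA, since the 1081-base form was at 21.4 (total RNA) and 21.6 FPKM (mRNA).

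By the largest difference over the 6 ratios (3 days, 2 library kinds), no TIP gene had another TIP gene as its nearest. The closest TIP genes were TIP1-2 and TIP2-2, which differed by up to 1.38, and the farthest were TIP2-2 and TIP4-1, at 3.68. Without its short form TIP1-1 lies within 0.74 of TIP2-2. TIP1-2 followed a common course, with 261 genes within 0.5 of it. The nearest were Os05g0387200 (UDP-sulfoquinovose synthase of sulfolipid synthesis) at 0.19, Os03g0108600 (described as a DEAD-box RNA helicase) at 0.19 and Os06g0225300 (SERK1-like) at 0.20. TIP2-2 had 9 genes within 0.5, led by Os06g0500300 and Os06g0233800, both of unknown function, at 0.22 and 0.29 and by Os10g0113100 (aldo/keto reductase) at 0.30. TIP4-1 had 10, led by Os01g0770700 (copper transporter 1) at 0.30, Os08g0470700 (carbonic anhydrase-like) at 0.40 and Os10g0519300 (ATP-binding protein) at 0.40. No gene lay within 0.5 of TIP1-1, and the nearest were Os02g0688800 (noncoding) at 0.55, Os10g0362700 at 0.69 and Os05g0330700 at 0.73, the last 2 of unknown function. Without the short form, Os01g0151700 (short-chain dehydrogenase Tic32) was nearest at 0.43 and the plasma membrane aquaporin gene Os02g0629200 (PIP2-2) came next at 0.46.

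Of 5 further TIP loci, 4 had values in both library kinds and Os04g0550800 (TIP5-1) did not. Those 4 stayed at 15.7 FPKM or less in all libraries, which overlaps the lowest values of TIP2-2 and TIP4-1. TIP4-2 (Os01g0232000) was at 4.21 FPKM under full watering, then at 0.846, 0.0530 and 0.0637 FPKM after 1, 2 and 3 dry days in total RNA. In mRNA it was at 15.7 FPKM under full watering, then at 3.41, 0.221 and 0.124 FPKM after 1, 2 and 3 dry days, and it was called lower on each day. Its neighbour TIP4-3 (Os01g0232100) was at 0.932 FPKM under full watering, then at 4.64, 12.2 and 2.63 FPKM after 1, 2 and 3 dry days in total RNA, and was called higher on days 1 and 2 and lower from day 2 to day 3. The TIP4 genes thus took 3 courses, since TIP4-1 was lowest on the day when TIP4-3 was highest. TIP3-1 (Os10g0492600), a seed type gene, was listed at 0 in the well-watered and day 1 libraries, was called higher on day 3 and then stood at 5.61 FPKM (total RNA) and 4.74 FPKM (mRNA). TIP3-2 (Os04g0527900) was at 0.733 FPKM or less.

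Plasma membrane aquaporins (PIPs), which let water into the cell, stood higher in sum on days 1 and 2, when the TIP sum was lower. The day 1 total RNA difference of the PIP sum was gone under median-ratio scaling (log2 ratio -0.0046). The contrast holds for the sums and not for each gene. In FPKM without further scaling, the TIP genes other than TIP1-2 were not lower in sum on these days. The PIP gene Os09g0541000 fell in both kinds, with total RNA levels of 1052 (watered), 604 (day 1) and 81.1 FPKM (day 2). All other compared PIP genes had positive ratios on both days. Over the measured genes, the PIP sum in total RNA was 2443 FPKM under full watering. After 1, 2 and 3 dry days it was 2886, 3434 and 989 FPKM. In mRNA it was 2526 FPKM under full watering, then 3690, 3997 and 1267 FPKM after 1, 2 and 3 dry days. The TIP sum was 0.334 of the PIP sum when watered and 0.209, 0.164 and 0.240 of it on days 1, 2 and 3 in total RNA, and 0.541, 0.278, 0.193 and 0.315 of it at those times in mRNA. Of 8 compared PIP genes, day 1 had 1 called higher (6.93% of all genes), day 2 had 3 called higher (14.5%) and 1 lower (11.1%), and day 3 had 6 called lower (25.9%), or 3 under median-ratio scaling. At the 2 ends on day 3 were Os09g0541000 (PIP2-7), at -4.62 and -4.84, and Os07g0448800 (PIP2-1), at 0.61 and 0.48. Of 5 compared NIP genes, channels that also carry small solutes, 1 was higher and 2 were lower on day 3, beside 18.2% and 25.9% of all genes. With a mean of at least 5 FPKM, 0 NIP genes were higher and 1 was lower, and with a pseudocount of 5, 0 were higher. Neither of the 2 SIP genes, channels of inner membranes, was called on any day, beside 18.2% of all genes higher and 25.9% lower on day 3. Os03g0320000 came close on day 3, at -1.12 in total RNA and -0.985 in mRNA.

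Of the proton pumps that share the vacuole membrane with the TIPs, the H+-ATPase was mostly higher on day 3. The vacuolar H+-ATPase acidifies the vacuole and drives solute uptake, and 14 of its 19 compared genes were called higher on day 3 and none lower, with medians of 1.59 and 1.53, beside 18.2% of all genes called higher. On day 2, 10 were higher (4 with quantile-normalized values), beside 14.5%. On day 1, 4 were, beside 6.93%, but 2 with a pseudocount of 5 and none under median-ratio or quantile scaling. Os06g0568200, a B subunit gene, was at 84.0 FPKM under full watering, then at 192, 265 and 424 FPKM after 1, 2 and 3 dry days in total RNA, while Os05g0487600, another B subunit gene, was at -0.36 and -1.46 on day 3. Among 4 compared genes of the vacuolar H+-pyrophosphatase, the second proton pump of this membrane, 1 was called on day 3. This was Os02g0184200, lower at -1.83 and -1.69, beside 25.9% of all genes called lower. It was also called lower on day 2, at -1.07 and -1.08, beside 11.1% of all genes. The vacuolar Na+/H+ antiporter gene Os07g0666900 was at 6.93 FPKM under full watering, then at 26.7, 74.8 and 127 FPKM after 1, 2 and 3 dry days in total RNA. It is 1 of 7 compared genes taken by descriptions of sodium/hydrogen antiporters or exchangers, which do not name a membrane. Of these 7, 3 were called higher on day 3, beside 18.2% of all genes. With a pseudocount of 5, or with a mean of at least 5 FPKM, 2 were. Os01g0794650, 1 of the 3, was listed at 0 FPKM when watered.

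**Figure D5:**
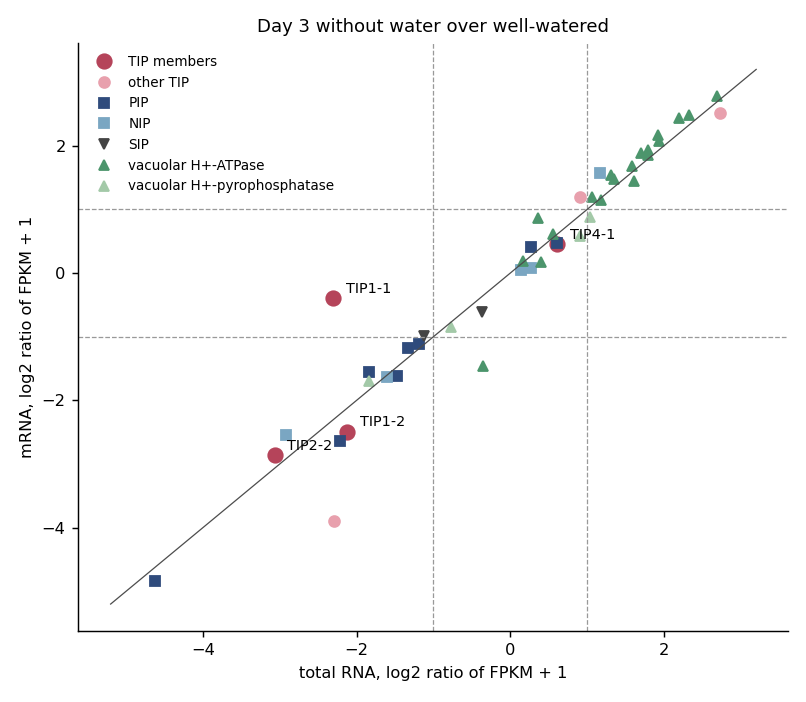
Log2 ratio of FPKM + 1 on day 3 over well-watered in total RNA (x axis) and mRNA (y axis) for compared genes of the aquaporin families and the vacuolar proton pumps, 1 point per gene, with dashed lines at the 2-fold rule and a line of equal values. TIP1-1 lies far above the line at -2.30 and -0.39, TIP1-2 and TIP2-2 lie near it at the lower left, and the H+-ATPase genes lie mostly at the upper right.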

How the data were processed

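Strand-specific total RNA and mRNA libraries were made from leaf RNA, per the labels' protocols. The genome build was IRGSP-1.0, per the submitters' processing notes, which list StringTie 1.3.3b, HISAT2 2.0.5, Bowtie2 2.2.6, Trimmomatic 0.32 and FastQC 0.10.0 without their roles. The authors deposited an FPKM value for each transcript in each library, per the file headers, and log2 values that, from the values, are quantile-normalized log2(FPKM + 1). FPKM was summed per gene here, with a pseudocount of 1 and a filter that asked for an average of 1 FPKM or more in both tables. FPKM + 1 understates ratios of low genes.

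The members, gene lists and tests were chosen with earlier results of these data known. All members are described. Of other lists the 2 highest and 2 lowest genes on day 3 could be named, and for each compared member the 3 genes with the most similar ratios. Aquaporin loci come from general knowledge, and pumps from words in the descriptions, with pyrophosphatases taken out of the H+-ATPase list after it was first drawn. Of the 1 root and 2 seed marker genes on the lists, 0 had values in both library kinds, so none could be compared. Median-ratio factors used the genes that no library of the table listed at 0. Calculations ran in numpy 2.4.6, pandas 2.3.3 and scipy 1.17.1 under Python 3.11.15.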

Additional observations from a re-analysis of the deposited data

How the results depend on the processing

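No paired analysis was possible because each treatment has 1 library per library kind and no test was run. The count of TIP genes called lower on day 2 was 1, and 2 with the mRNA libraries alone. The count called lower from day 2 to day 3 was 2, and 1 under median-ratio scaling. It was 3, with TIP1-1 added, with a pseudocount of 0.1, quantile-normalized values, total RNA alone, the highest-mean transcript and both alternatives for the short form. All other counts of called TIP genes kept within 1.5 times of the reported ones with pseudocounts of 0.1 and 5, no filter, a mean of at least 5 FPKM, the deposited quantile-normalized values, total RNA alone and the transcript with the highest mean alone, and the last 2 of these each gave 3 lower genes on day 3 in place of 2. The calls of TIP1-2 and TIP2-2 on day 3 and of TIP4-1 on day 2 held under both other scalings, at -1.76 and -1.93, -2.74 and -2.34, and -1.38 and -1.51 (total RNA, mRNA) with median-ratio factors. That scaling moved the day 3 median of all genes to 0.07 and 0.10, and TIP4-1 stood at 0.97 and 1.01 on day 3. The 2 alternatives for the short TIP1-1 form were chosen after seeing the data. Depth is known only through the assumed fragment step.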
